A study of Homo sapiens with 2 samples.

Results

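The ubiquitin-conjugating enzymes, or E2 enzymes, were examined in the RNA-seq data of PLC-8024 cells with and without GDF1 overexpression. They were taken as the genes whose symbol is UBE2 followed by 1 letter and at most 1 digit, with UBE2C set aside. Of the 58174 genes in the deposited tables, 34 matched, and 31 of these had at least 1 TPM in either library, among 14929 genes that did. The other 3 were UBE2U and the processed pseudogenes UBE2L2 and UBE2L4. UBE2U and UBE2L2 were listed at 0.0001 TPM in both libraries, the value that stands in the files in place of 0, and UBE2L4 at 0.0001 and 0.34 TPM.

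PLC-8024 is a human hepatocellular carcinoma (HCC) cell line. The control cells (PLC-8024-CTR) carried a vector without the gene and the PLC-8024-GDF1 cells carried human GDF1, a secreted ligand of the TGF-β superfamily, introduced by viral transduction with puromycin selection of the transduced cells. Polyadenylated RNA was sequenced from 1 library per condition, so no difference has a replicate check and every value below describes these 2 libraries. The question addressed here is which E2 transcripts differ between cells with and without GDF1. TPM is a transcript level scaled by length and library total, so levels of different genes can be set side by side. Changes are differences of log2(TPM + 1), PLC-8024-GDF1 minus PLC-8024-CTR, and the added 1 TPM makes the change of low genes smaller. Genes are called past 2-fold or 1.5-fold on this scale, and a fold named as a plain ratio has no added TPM.

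The overexpressed gene itself had 2.096 TPM in the control cells against 4.64 TPM in the PLC-8024-GDF1 cells, and CERS1, whose exons contain the GDF1 coding sequence, at 13.3 and 9612 TPM. All 10 hepatocyte and HCC markers reached 1 TPM, with SERPINA1 at 5308 and 2915 TPM, and 5 of the 10 (ALB, AFP, TTR, APOA1 and HNF4A) were past 2-fold lower, against 9.61% of all expressed genes. The 3 that were higher, all within 2-fold, were TF (1318 and 1434 TPM), KRT8 (1424 and 1777 TPM) and KRT18 (1005 and 1224 TPM). The paper counts AFP as a liver progenitor marker and reports that GDF1 overexpression induced such markers. In these 2 libraries AFP went the other way, at 31.4 and 9.75 TPM. Of the markers of other cell types, 1 of 5 for fibroblasts (COL3A1, 3.22 and 1.23 TPM), 1 of 5 for leukocytes (CD68, 33.1 and 13.2 TPM), 1 of 4 for endothelium (PECAM1, 23.2 and 22.2 TPM) and 2 of 3 for erythroid cells (HBA1, 41.5 and 19.96 TPM, and HBA2, 36.0 and 15.96 TPM) reached 1 TPM. PTPRC, VWF, KDR, COL1A2, DCN and HBB stood at 0.0001 TPM in both libraries. The part of these transcripts in the E2 values was not tested. Of the 15 cell-cycle transcripts, 6 were past 2-fold lower and 1, AURKA, was past 2-fold higher (against 9.61% and 4.82% of all expressed genes), with a median change of -0.60 beside -0.20 for all expressed genes. The part of cell cycle differences in the E2 values was not tested. In bulk RNA, fewer cells with a transcript and less of it per cell cannot be told apart.

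Ubiquitin is attached to proteins by a chain of 3 kinds of enzyme. An E1 enzyme activates the modifier, an E2 enzyme receives it on a cysteine, and an E3 ligase brings the loaded E2 together with the substrate. Separate E2 enzymes serve related modifiers such as NEDD8 and ISG15, and the UBE2V proteins keep the E2 fold without the cysteine and work as partners of UBE2N.

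The coding sequence around the active cysteine is what most of these genes share, and the stretch is shown here because the rule used the symbol only. In 19 of the 31 genes the coding sequence encodes the E2 signature His-Pro-Asn (HPN), and the first cysteine codon follows 10 codons after the start of HPN in 17 of them and 11 codons after it in 2 (UBE2H and UBE2K). The 12 genes without HPN were UBE2E1, UBE2E2, UBE2E3, UBE2J1, UBE2J2, UBE2O, UBE2Q1, UBE2Q2, UBE2V1, UBE2V2, UBE2W and UBE2Z. The stretches below run from HPN to the cysteine, read in coding direction from GENCODE transcripts on GRCh37, with the HPN codons and the cysteine codon in capitals. UBE2G2 (chr21:46193580-46197223, minus strand) and UBE2G1 (chr17:4192681-4200021, minus strand) span an exon junction, exons 4 and 5 in UBE2G2 and exons 3 and 4 in UBE2G1. UBE2D2 (chr5:138994470-138994502, plus strand, exon 5), UBE2D3 (chr4:103722660-103722692, minus strand, exon 6), UBE2M (chr19:59068068-59068100, minus strand, exon 4), UBE2L3 (chr22:21965248-21965280, plus strand, exon 3) and UBE2L6 (chr11:57321962-57321994, minus strand, exon 3) each lie in 1 exon.
UBE2G2: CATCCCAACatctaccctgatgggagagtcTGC
UBE2G1: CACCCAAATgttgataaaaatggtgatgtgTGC
UBE2D2: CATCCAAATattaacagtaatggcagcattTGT
UBE2D3: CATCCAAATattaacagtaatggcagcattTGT
UBE2L3: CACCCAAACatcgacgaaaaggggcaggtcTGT
UBE2L6: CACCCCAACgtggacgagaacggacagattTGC
UBE2M: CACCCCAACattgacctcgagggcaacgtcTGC
UBE2D2 and UBE2D3 do not differ in this stretch, UBE2L3 and UBE2L6 differ at 9 of 33 bases, and UBE2G1 and UBE2G2 differ at 16 of 33. Over the whole coding sequence, 86.6% of aligned positions are identical between UBE2D2 and UBE2D3, 61.4% between UBE2L3 and UBE2L6, and 57.0% between UBE2G1 and UBE2G2. No 100-base window of a transcript of UBE2G1, UBE2G2, UBE2D2, UBE2D3 or UBE2L6 occurs in another gene, while 4.8% of UBE2M windows occur in the pseudogene UBE2MP1.

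Across the 31 E2 genes, most levels were lower in PLC-8024-GDF1 and only UBE2G2 was past 2-fold. In all, 26 of the 31 were lower (83.9%, against 63.3% of all expressed genes and 67.4% of the protein-coding ones) and 5 were higher. Past 2-fold lower was 1 gene (3.2%, against 9.61% of all expressed genes) and past 2-fold higher none (against 4.82%). At 1.5-fold, a threshold chosen after the values were seen, 10 were lower (32.3%, against 25.3%) and 1 was higher (UBE2L6, against 11.5%), and 20 stayed within 1.5-fold. With rescaled TPM, 6 were past 1.5-fold lower (19.4%, against 17.7%), and with a trend on GC content removed, 2 were (6.45%, against 13.5%), so the share was then under that of all expressed genes. The shares past 2-fold were thus under the background in both directions, while the share that was lower by any amount was above it. The share of lower genes moved with the scaling. The median plain log2 ratio of all genes with at least 5 TPM in a library was -0.21, and with PLC-8024-GDF1 rescaled to bring it to 0, 20 of the 31 were lower (64.5%, against 51.6%), while with the GC trend removed 18 were (58.1%, against 46.6%). Changes closer to 0 than about -0.21 thus turn positive when the libraries are centred on each other, and those of UBE2G2 stayed between -3.14 and -2.49 under each pseudocount, scaling and GC setting tried. The median change was -0.34, beside -0.20 for all expressed genes and -0.25 for the 11792 expressed protein-coding genes. Added up, the 31 genes made 1215 TPM in the control library against 1054 TPM in the GDF1 library (-0.21).

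**Figure D1:**
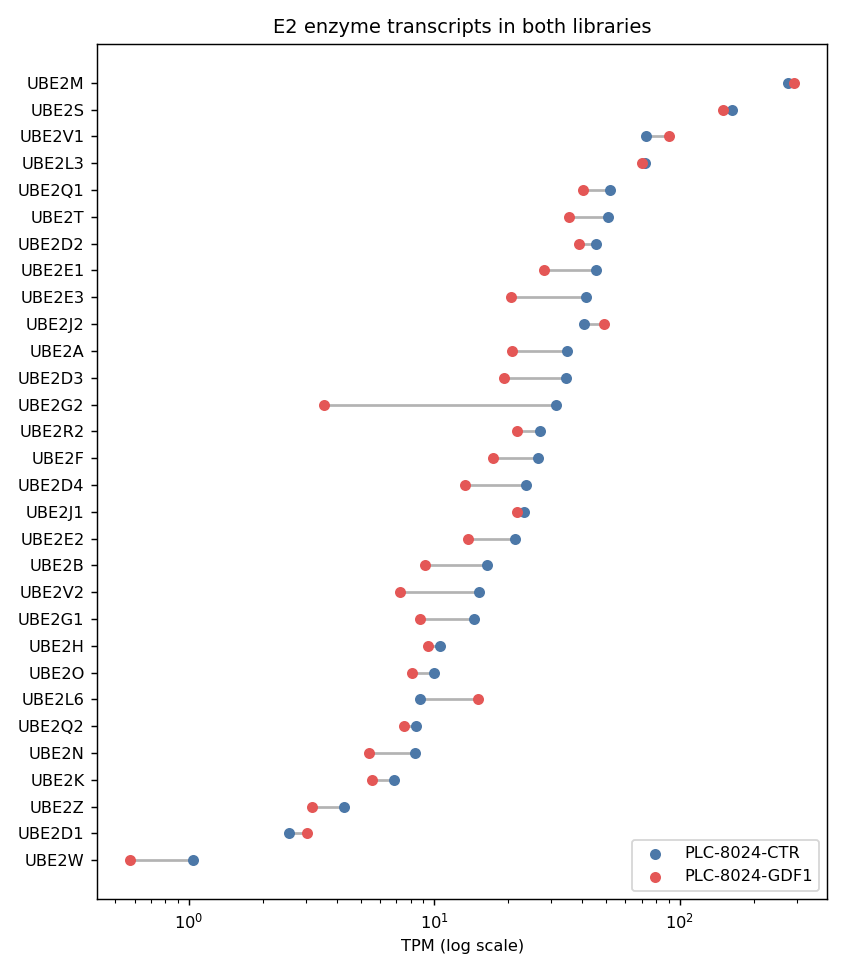
Level of 30 of the 31 E2 genes in PLC-8024-CTR (blue) and PLC-8024-GDF1 (red), in TPM on a log axis, ordered by the control level. UBE2M is highest in both (275 and 293 TPM), and UBE2G2 has the longest line, from 31.2 to 3.54 TPM.

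**Figure D2:**
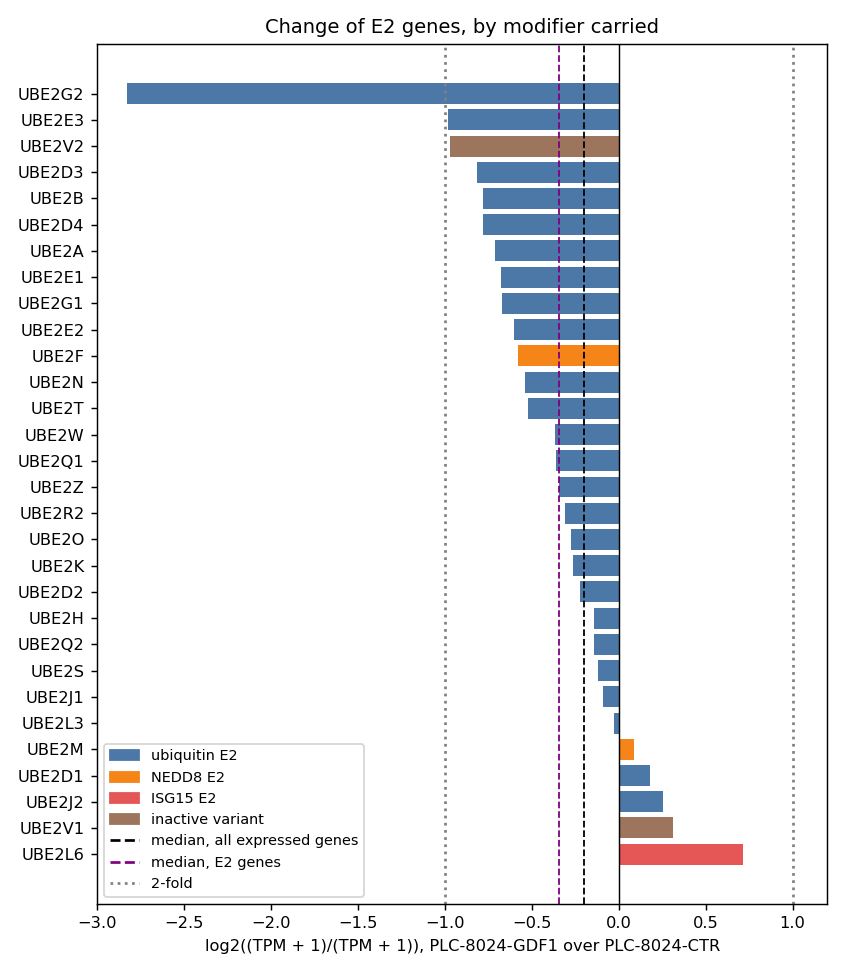
Log2 change of 30 of the 31 E2 genes on the TPM + 1 scale, coloured by the modifier carried, with dashed lines for the median of the E2 genes (-0.34) and of all expressed genes (-0.20) and dotted lines at 2-fold. UBE2G2 alone lies past the dotted line, at -2.83, and the 5 genes above 0 are UBE2M (-0.006 with the GC trend removed), UBE2D1, UBE2J2, UBE2V1 and UBE2L6.

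The largest difference was in UBE2G2, an E2 of endoplasmic-reticulum-associated degradation (ERAD) that builds ubiquitin chains on misfolded proteins leaving the endoplasmic reticulum. UBE2G2 (ENSG00000184787, chr21:46188495-46221741 of GRCh37, minus strand) had 31.2 TPM in the control library against 3.54 TPM in the GDF1 library, 8.82-fold lower as a plain ratio, with a change of -2.83 on the log2(TPM + 1) scale. This change ranked 54 from the lowest among the 14929 expressed genes. UBE2G1, its paralog, was at 14.5 and 8.75 TPM, a change of -0.67, so the order of the pair was reversed between the libraries: the ratio of UBE2G2 to UBE2G1 was 2.15 in PLC-8024-CTR and 0.40 in PLC-8024-GDF1. No expressed gene overlaps UBE2G2 on its strand. Its neighbour SUMO3 was at 53.3 and 44.9 TPM and PTTG1IP at 127 and 87.9 TPM, both lower by less than 2-fold.

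The other ERAD E2 enzymes, which are anchored in the membrane of the endoplasmic reticulum, stayed near their control level. UBE2J1 was at 23.2 and 21.7 TPM (change -0.09). UBE2J2 was at 40.9 and 48.9 TPM (0.25), and it ranked 10 among the E2 genes in the control library and 5 in the other. Among the ERAD partners listed, SYVN1 (HRD1), the ERAD ligase in the membrane, was past 2-fold lower, from 55.9 to 10.7 TPM (-2.28). AUP1, which recruits UBE2G2 to membranes, was at 351 and 310 TPM (-0.18). The ligase RNF139 was at 10.4 and 7.63 TPM (-0.40). Of the ERAD genes described here, UBE2G2 and SYVN1 were thus past 2-fold.

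UBE2D, a versatile family of E2 enzymes, works with many E3 ligases and often starts ubiquitination. UBE2D2 was at 45.6 and 39.0 TPM (-0.22). UBE2D3 was at 34.5 and 19.1 TPM (-0.82). UBE2D4 was at 23.5 and 13.3 TPM (-0.78), and UBE2D1 was lowest at 2.56 and 3.03 TPM (0.18). Of the 4 members, 3 were thus lower by unequal amounts and UBE2D1 was higher. UBE2D2 made up 43.0% of the family's TPM in PLC-8024-CTR and 52.4% in PLC-8024-GDF1, while UBE2D3 made up 32.5% and 25.7%. UBE2E, whose members carry an N-terminal extension, was lower throughout. UBE2E1 was at 45.4 and 28.0 TPM (-0.68). UBE2E3 was at 41.6 and 20.5 TPM (-0.98), just inside 2-fold on the log2(TPM + 1) scale but 2.02-fold lower as a plain ratio. UBE2E2 was at 21.3 and 13.7 TPM (-0.60).

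UBE2A and UBE2B, the human forms of yeast Rad6, act with RAD18 on PCNA and with RNF20 and RNF40 on histone H2B. UBE2A was at 34.7 and 20.8 TPM (-0.71) and UBE2B at 16.5 and 9.15 TPM (-0.78), and UBE2A stayed the more abundant of the pair in both libraries. Their partners RNF20, RNF40 and RAD18 all stayed within 2-fold. RNF40 was the higher in PLC-8024-GDF1, at 13.2 and 20.3 TPM, and RNF20 was at 7.02 and 4.37 TPM.

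UBE2N forms chains of the type used in DNA repair and inflammatory signalling, and needs a UBE2V partner for it. UBE2N was at 8.37 and 5.44 TPM (-0.54). UBE2V2 was at 15.1 and 7.25 TPM (-0.97), and UBE2V1 at 72.7 and 90.3 TPM (0.31), so the ratio of UBE2V1 to UBE2V2 was 4.80 in PLC-8024-CTR and 12.5 in PLC-8024-GDF1. UBE2V1 (chr20:48697661-48732496 of GRCh37, minus strand) shares 80.8% of its 100-base windows with a read-through gene, TMEM189-UBE2V1. The read-through had 50.2 TPM in the control library and stood at 0.0001 TPM in the GDF1 library. Added up, UBE2V1 and the read-through gene were at 123 and 90.3 TPM, a change of -0.44, the opposite direction to UBE2V1 alone. TMEM189, the other part of the read-through, was at 21.4 and 11.4 TPM. The part of reads assigned between the genes in the UBE2V1 value was not tested.

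**Figure D3:**
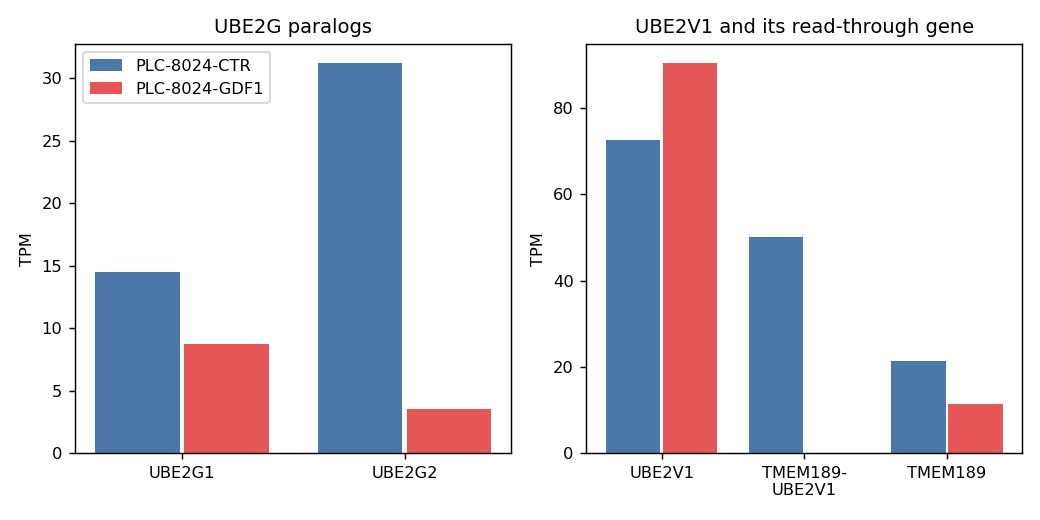
TPM of the UBE2G paralogs (left) and of UBE2V1, its read-through gene TMEM189-UBE2V1 and TMEM189 (right) in PLC-8024-CTR (blue) and PLC-8024-GDF1 (red), 1 library each, with bars from 0. UBE2G2 is above UBE2G1 only in the control library, and the read-through gene has 50.2 TPM there and is listed at 0.0001 TPM in the other.

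UBE2L6, the E2 of the interferon-induced modifier ISG15, was the one E2 gene more than 1.5-fold higher. UBE2L6 (ENSG00000156587, chr11:57319129-57335757 of GRCh37, minus strand) had 8.74 TPM in the control library against 14.995 TPM in the GDF1 library (0.72). UBA7, the E1 of ISG15, was at 1.66 and 3.84 TPM (0.86), and ISG15 itself at 205 and 272 TPM (0.41). HERC5, an ISG15 ligase, was at 1.40 and 0.98 TPM (-0.28). The E1, the E2 and the modifier of this pathway were thus higher in PLC-8024-GDF1 and the ligase was not, and none of the 4 was past 2-fold on the log2(TPM + 1) scale, while UBA7 was 2.31-fold higher as a plain ratio. UBE2L3, a relative of UBE2L6 that loads ubiquitin onto RBR ligases, was at 71.8 and 70.5 TPM (-0.03). ARIH2, an RBR ligase, was past 2-fold lower, at 36.7 and 14.8 TPM (-1.25).

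UBE2Z, which carries ubiquitin and the modifier FAT10 from the E1 enzyme UBA6, was at 4.29 and 3.17 TPM (-0.34). UBA6 was at 2.20 and 1.33 TPM (-0.46), while UBD, the gene of FAT10, was at 64.7 and 117.5 TPM (0.85).

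NEDD8 activates cullin ligases, and its E2 enzymes are UBE2M and UBE2F. UBE2M was the most abundant E2 transcript in both libraries, at 275 and 293 TPM (0.09), and made up 22.7% of all E2 TPM in PLC-8024-CTR and 27.8% in PLC-8024-GDF1. UBE2F was at 26.4 and 17.4 TPM (-0.58), and with its read-through gene UBE2F-SCLY added, at 29.1 and 19.6 TPM (-0.54). The E1 subunits differed in size of change, with UBA3 at 17.0 and 10.1 TPM (-0.69) and NAE1 at 45.01 and 42.3 TPM (-0.09). NEDD8 was at 210.1 and 161 TPM (-0.38).

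In the SUMO system, UBA2, a subunit of the E1, was past 2-fold lower, at 10.2 and 3.52 TPM (-1.31), and the other subunit, SAE1, was at 127 and 114 TPM (-0.15). Of the modifier genes, SUMO2 was at 44.2 and 31.6 TPM (-0.47) and SUMO3 at 53.3 and 44.9 TPM (-0.24). Of these 4 genes, UBA2 alone was thus past 2-fold. RNF4, a ligase that recognises SUMO chains, was at 32.4 and 2.46 TPM, a change of -3.27.

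**Figure D4:**
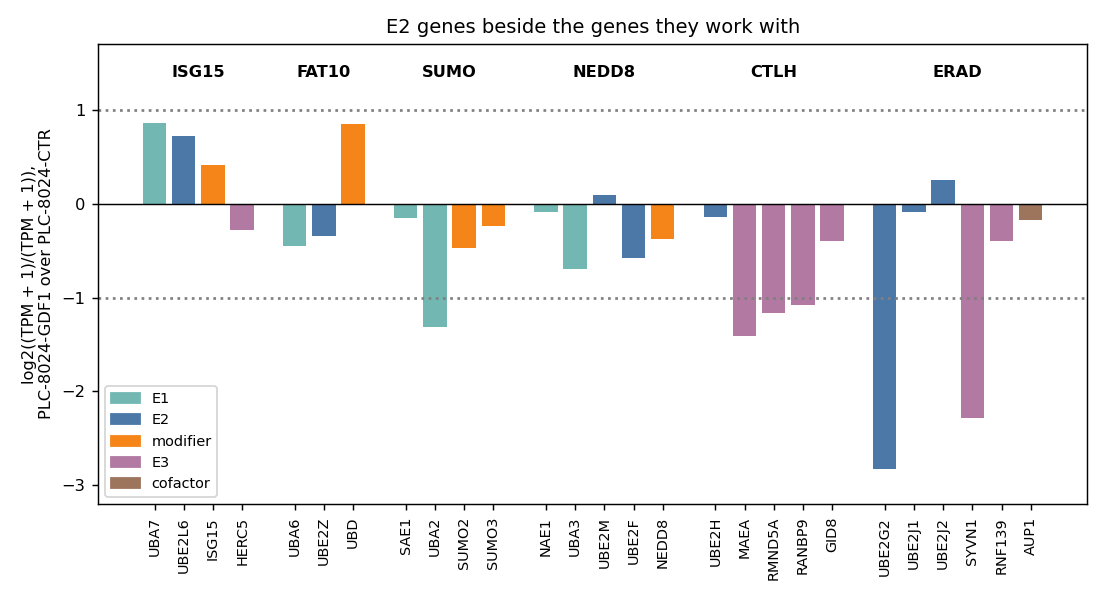
Log2 change on the TPM + 1 scale of E2 genes (blue) beside listed genes they work with, coloured as E1, modifier, E3 or cofactor and grouped by system, with dotted lines at 2-fold (CTLH is a ligase complex that uses UBE2H). Of the genes drawn, UBE2G2 (-2.83) and SYVN1 (-2.28) stand lowest (RNF4, at -3.27, is not drawn), and UBA7, UBE2L6 and ISG15 stand above 0 together.

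Of the E2 enzymes of the cell cycle and DNA repair, UBE2S extends chains on substrates of the anaphase-promoting complex. UBE2S was at 164 and 150.3 TPM (-0.12), and UBE2C, which starts those chains and was set aside by the rule, at 56.9 and 60.5 TPM (0.09). Transcripts of UBE2S share 33.5% of their windows with other genes, 23.4% with CTD-2105E13.13, a non-coding gene of the annotation whose level was not analysed here, and 5.4% with the pseudogene UBE2SP1. Added to UBE2SP1 alone (18.2 and 15.2 TPM), UBE2S changed by -0.13. UBE2T, the E2 of the Fanconi anaemia pathway, was at 51.2 and 35.4 TPM (-0.52), its ligase FANCL at 12.2 and 10.7 TPM (-0.18) and the substrates FANCD2 and FANCI at 8.76 and 4.93 TPM (-0.72) and at 22.2 and 25.6 TPM (0.20).

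UBE2R2 serves cullin ligases with CDC34, its relative outside the rule. UBE2R2 was at 27.1 and 21.7 TPM (-0.31) and CDC34 at 135 and 134 TPM (-0.01). UBE2H works with the CTLH ligase complex and was at 10.5 and 9.40 TPM (-0.15). All 4 CTLH genes listed were lower (against 63.3% of all expressed genes), and 3 of them were past 2-fold lower (against 9.61%). These were MAEA at 25.7 and 9.06 TPM, RMND5A at 5.63 and 1.95 TPM, and RANBP9 at 11.3 and 4.86 TPM. They are part of a longer list of E3 and cofactor genes, of which 9.7% were past 2-fold lower. UBE2H differed less than these ligase subunits.

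Among the remaining E2 genes described, none was past 1.5-fold on the log2(TPM + 1) scale. UBE2K, which extends ubiquitin chains, was at 6.84 and 5.54 TPM (-0.26). UBE2O, a large enzyme with both E2 and E3 activity, was at 9.99 and 8.10 TPM (-0.27). UBE2Q1 was at 51.9 and 40.2 TPM (-0.36) and UBE2Q2 at 8.40 and 7.51 TPM (-0.14). UBE2W, which attaches ubiquitin to the N-terminus of proteins, was the lowest E2 gene at 1.04 and 0.58 TPM (-0.37, or 1.80-fold lower as a plain ratio), the only one of the 31 under 1 TPM in a library. The 31 coding sequences run from 145 to 1292 residues.

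By modifier, the ubiquitin E2 genes held 65.0% of all E2 TPM in PLC-8024-CTR and 57.6% in PLC-8024-GDF1. Of these 25 genes, 23 were lower (92.0%, against 63.3% of all expressed genes and 67.4% of the protein-coding ones). That count includes genes whose small changes turn sign with rescaled TPM. The NEDD8 E2 genes held 24.8% and 29.4%, the inactive UBE2V variants 7.23% and 9.26% and the ISG15 E2 0.72% and 1.42%. The 5 most abundant genes of the control library, UBE2M, UBE2S, UBE2V1, UBE2L3 and UBE2Q1, held 52.3% of E2 TPM there and 61.1% in PLC-8024-GDF1. With the read-through gene added to UBE2V1, the UBE2V variants held 10.9% and 9.26%, the opposite direction, and the 5 genes held 54.2% and 61.1%. The 5 genes summed to 635 and 644 TPM as listed, but to 686 and 644 TPM with the read-through, and the other 26 genes to 580.0 and 409 TPM.

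Around the E2 genes, the other levels of the pathway were read from lists of E1, modifier, E2-like and E3 genes. Of the 10 E1 genes, UBA2 was past 2-fold lower and ATG7, the E1 of autophagy, past 2-fold higher (6.85 and 17.3 TPM, 1.22), while UBA1, the main E1 of ubiquitin, was at 425 and 408 TPM (-0.06). Of the 16 modifier genes, MAP1LC3B (48.1 and 17.5 TPM) and URM1 (13.8 and 4.93 TPM) were past 2-fold lower. Of the 9 expressed of 11 E2 genes outside the rule, BIRC6, a giant E2 and E3 enzyme that inhibits apoptosis, was past 2-fold lower (5.10 and 1.14 TPM, -1.51). Of the 62 expressed E3 and cofactor genes, 6 were past 2-fold lower (SYVN1, RNF4, ARIH2, MAEA, RMND5A and RANBP9) and none was higher, a share of 9.7% lower against the 9.61% of all expressed genes, with a median change of -0.25. The share of E3 genes past 2-fold lower was thus near the background. The shares past 2-fold lower were 12.5% of the modifier genes and 11.1% of the E2 genes outside the rule, also near 9.61%. Among the E1 genes, 1 was lower and 1 higher, beside 9.61% and 4.82% of all expressed genes. In lists this short, such shares rest on 1 or 2 genes.

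The change of an E2 gene went along with the GC content of its longest transcript, which ran from 33.6% to 63.2%. Over the 31 genes Pearson's r was 0.31 and Spearman's rho 0.40, and without UBE2G2 they were 0.51 and 0.45, beside 0.29 and 0.33 over the 11792 expressed protein-coding genes. These genes share the same 2 libraries and are not independent. The 10 E2 genes under 40% GC had a median change of -0.53 (protein-coding genes -0.49), the 6 from 40% to 45% of -0.41 (-0.42), the 7 from 45% to 50% of -0.58 (-0.33) and the 8 at 50% or more of -0.07 (-0.07). Outside the range from 45% to 50%, the medians of the E2 genes lay close to those of all protein-coding genes. With the trend of protein-coding genes subtracted, UBE2G2 was at -2.49, UBE2E3 at -0.61, UBE2L6 at 0.82, UBE2V1 at 0.71 and UBE2D1 at 0.65. The UBE2V1 value leaves out its read-through gene, with which the change before subtraction was -0.44, and UBE2D1 had only 2.56 and 3.03 TPM.

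**Figure D5:**
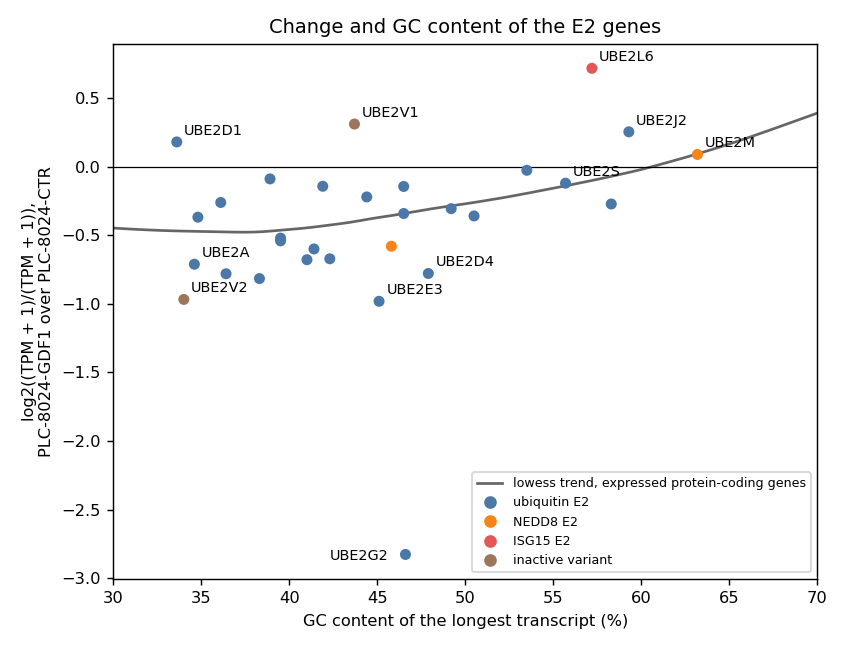
Log2 change of 30 of the 31 E2 genes on the TPM + 1 scale against the GC content of its longest transcript (%), coloured by the modifier carried, with the lowess trend of expressed protein-coding genes as a grey line. Most E2 genes lie near the line, UBE2G2 lies far under it and UBE2L6, UBE2V1 (drawn without its read-through gene) and UBE2D1 lie furthest above it.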

How the data were processed

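The authors prepared polyadenylated RNA libraries, sequenced them on an Illumina HiSeq platform, aligned the reads to hg19 and deposited 1 TPM value per gene and library. The submitters' processing notes name FastQC 0.11.2, Trimmomatic 0.36, HISAT2 2.1.0, bedtools 2.26.0 and StringTie 1.3.3b. The methods name RefSeq while the tables list Ensembl identifiers. TPM summed to 999990 and 999995, so depth cannot be read from it and no interval is given.

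Groups came from the genotype labels. Tables were joined by gene identifier and log2((TPM + 1)/(TPM + 1)) was computed for the genes that reached 1 TPM in a library. With 1 library per condition, no test was made and genes were counted by fold. The expressed E2 genes are named, with listed partners past 2-fold or tied to them, except that some single-gene values are not reported here. The members and lists were chosen with earlier results of these data known. Of the 67 listed E3 and cofactor symbols, 66 matched. Annotation and transcripts came from GENCODE 44 on GRCh37, which held 55726 of the identifiers. The steps used Python 3.11.15, pandas 2.3.3, statsmodels 0.14.6 and Biopython 1.88. Only the count of genes past 2-fold was tested on simulated data, with larger changes planted in genes of at least 5 TPM. The alternatives were other pseudocounts, minimums, scalings, a GC adjustment, and genes left out or added up.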

Additional observations from a re-analysis of the deposited data

How the results depend on the processing

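No paired analysis was possible because only 1 library stands for PLC-8024-CTR and 1 for PLC-8024-GDF1, and no library could be left out for the same reason. Past 2-fold lower were 3 E2 genes when 0.1 TPM was added in place of 1 TPM (9.68%, against 15.5% of all genes), and 3 as plain TPM ratios (against 16.1%), where UBE2E3 (-1.01 and -1.02) and UBE2V2 (-1.05 and -1.06) joined UBE2G2. On the log2(TPM + 1) scale, leaving out UBE2G2, the only gene past 2-fold lower there, gives 0 by construction. Past 1.5-fold lower were 6 with rescaled TPM (17.7% of all genes), 2 with the GC trend removed (13.5%) and 3 of 20 with paralog families added up, and past 1.5-fold higher were 3 with the GC trend removed (17.8%). With families added up, 16 of 20 were lower. The median change was -0.16 with rescaled TPM (all genes -0.02) and -0.032 with the GC trend removed (all genes 0.04). Rescaling multiplies every PLC-8024-GDF1 value by 1.15, so small changes turn sign by construction: 6 genes did, UBE2H, UBE2J1 and UBE2S among them, and 10 did with the GC trend removed. UBE2G2 stayed past 2-fold lower with both other pseudocount settings, rescaled TPM and the GC trend removed. The shares by modifier stayed within 1.5 times their first values with no minimum and with UBE2C and CDC34 added. With the read-through gene added to UBE2V1, the share of the UBE2V variants in PLC-8024-CTR was 10.9% instead of 7.23%. Removing UBE2G2, the read-through in the shares, the 1.5-fold threshold and the protein-coding background were chosen after seeing the data. TPM keeps no depth, which limits low genes such as UBE2W and UBE2D1 most.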

Other observations

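Other genes with UBE2 in the symbol were not members of the rule. Of 46 pseudogenes and pseudogene-like genes, 4 reached 1 TPM in either library. UBE2SP1 was at 18.2 and 15.2 TPM, UBE2Q2L at 2.45 and 2.23 TPM and UBE2Q2P2 at 2.42 and 1.89 TPM. UBE2Q2P6 was at 0.26 TPM in the control library against 2.28 TPM with GDF1, which is 1.38 on the log2(TPM + 1) scale. Added to these UBE2Q2 relatives, UBE2Q2 was at 13.5 and 13.9 TPM, a change of 0.04, where UBE2Q2 alone was at -0.14. None of the 4 antisense genes reached 1 TPM.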
